A study of Mus musculus with 816 samples.

Results

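The guanylate-binding proteins Gbp2, Gbp3, Gbp4, Gbp5, Gbp6, Gbp7, Gbp8 and Gbp9 were followed through a stimulus panel of cultured mouse microglia and through microglia isolated from mouse brain. The 8 genes are taken by their names. All 8 have a row among the 45581 rows of the culture table and among the 29858 rows of the mouse table. The cultures were 784 wells of commercial neonatal primary mouse microglia (Sciencell) of 3 cell lots, grown in 96-well plates and stimulated for 4, 24 or 72 h with cytokines, Toll-like receptor (TLR) ligands, neurotransmitters, lipids or drugs, alone or together. The labels give no animals behind a well, so a p-value over cultures measures the spread between wells, lots and plates, which may be partly technical. Untreated cultures were kept for 24 h (40 cultures) or 72 h (25 cultures), and none is labelled 4 h. The 2 mouse experiments used CD11b-selected brain cells. In the first, 4 female C57BL/6 mice of 2 months received 2 mg/kg LPS intraperitoneally for 4 h and 4 received the PBS vehicle. In the second, 11 naive male C57BL/6 mice of 2 months were compared with 13 of 22 months, in 2 library series.

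Guanylate-binding proteins are large GTPases of the cell-autonomous immune response. Interferons induce their genes: interferon gamma (IFNg) acts at gamma-activated sites and through Irf1, and the type I interferons alpha (IFNa) and beta (IFNb) act at interferon-stimulated response elements. The proteins assemble on the vacuoles and outer membranes of intracellular pathogens, where they help to break the membrane and to engage caspase-11 (Casp4) and other inflammasomes. In microglia and macrophages they are part of the response to interferon and to ligands such as LPS that evoke interferon production.

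The members lie in 2 clusters (GRCm38, GENCODE vM21). Gbp5 (chr3:142493978-142522344), Gbp7 (chr3:142530342-142550149), Gbp3 (chr3:142560026-142573209) and Gbp2 (chr3:142620602-142638008) are on the plus strand of chromosome 3 within 144.031 kb. Gbp8 (chr5:105014150-105139540), Gbp9 (chr5:105077630-105139539), Gbp4 (chr5:105115767-105139586) and Gbp6 (chr5:105270702-105293698) are on the minus strand of chromosome 5 within 279.549 kb, and the annotated spans of Gbp8, Gbp9 and Gbp4 overlap on that strand. All 8 are annotated as protein coding. Of the chromosome 3 members, Gbp2 and Gbp5 carry a C-terminal signal for lipid attachment to membranes, and Gbp5 is known for promoting the Nlrp3 inflammasome.

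The libraries read the 3′ end of transcripts, so the sequence there decides how well members can be told apart. Of the 31-base words in the last 600 transcript bases, Gbp2, Gbp5 and Gbp7 shared 0% with any other Gbp gene, Gbp3 shared 3.90%, Gbp9 11.8%, Gbp8 16.5% and Gbp4 28.2%. Gbp6 shared 87.5%, of which nearly all lay in its neighbour Gbp10 (86.3% of the Gbp6 words). Values of Gbp6 are therefore uncertain, and it was listed at 0 in 618 of 784 cultures.

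RefSeq start regions (GRCm38.p6) were at hand for the 4 members of chromosome 3. They are shown because interferons act through motifs in such regions. Each line gives the 250 bases before an annotated transcript start, and capitals mark every match, on either strand, of GAAANNGAAA (the core of an interferon-stimulated response element) or TTCNNNGAA (a gamma-activated site).

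Gbp5 chr3:142496684-142496933 plus strand: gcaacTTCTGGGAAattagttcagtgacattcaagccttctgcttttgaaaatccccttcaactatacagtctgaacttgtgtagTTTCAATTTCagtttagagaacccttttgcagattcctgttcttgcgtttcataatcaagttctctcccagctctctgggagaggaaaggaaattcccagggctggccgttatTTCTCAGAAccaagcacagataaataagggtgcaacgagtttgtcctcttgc
Gbp7 chr3:142530086-142530335 plus strand: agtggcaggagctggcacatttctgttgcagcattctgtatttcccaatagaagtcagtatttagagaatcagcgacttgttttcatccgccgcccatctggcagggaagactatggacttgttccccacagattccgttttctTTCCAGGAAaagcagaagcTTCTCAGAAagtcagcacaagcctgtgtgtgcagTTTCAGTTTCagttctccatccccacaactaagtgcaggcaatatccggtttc
Gbp3 chr3:142559794-142560043 plus strand: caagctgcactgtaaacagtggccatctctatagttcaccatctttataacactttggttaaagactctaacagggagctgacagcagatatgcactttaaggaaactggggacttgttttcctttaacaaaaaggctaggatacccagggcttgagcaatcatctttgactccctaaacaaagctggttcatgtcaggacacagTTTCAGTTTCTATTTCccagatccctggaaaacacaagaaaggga
Gbp2 chr3:142620413-142620662 plus strand: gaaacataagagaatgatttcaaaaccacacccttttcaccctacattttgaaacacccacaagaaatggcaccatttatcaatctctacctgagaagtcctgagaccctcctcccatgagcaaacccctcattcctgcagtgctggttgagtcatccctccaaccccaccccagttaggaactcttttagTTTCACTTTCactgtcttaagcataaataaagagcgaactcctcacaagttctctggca

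Of the 5 member windows in the table, 4 held the response element core and are printed, and the fifth, a second annotated start of Gbp3, held neither motif. Of all windows of this length, 978 of 32851 held the core (2.98%). It lay 59 to 50 bases before the start in Gbp2, 53 to 44 in Gbp7, 165 to 156 in Gbp5, and at 2 overlapping places 45 to 36 and 39 to 30 bases before the start in Gbp3. The gamma-activated site was found 2 times in Gbp5, at 245 to 237 and 52 to 44, and 2 times in Gbp7, at 106 to 98 and 87 to 79 bases before the start, against 2306 windows of all (7.02%). No match of one motif overlapped a match of the other.

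Values were deposited as counts per 1000000 mapped reads (CPM), without correction for transcript length, so levels were compared between samples and not between members. Depth was not counted but estimated from the step between frequent low CPM values of each sample. In units of 1000000 reads, this estimate ranged from 1.00 to 38.2 per culture (median 4.67) and from 2.36 to 7.78 per mouse (median 4.08). Differences are given as log2 fold changes of CPM + 1 with their standard errors, which understates the change of members near 0. In cultures, a member was called higher or lower at a Benjamini-Hochberg adjusted p under 0.05 in limma over 16942 genes with a log2 fold change of at least 1. Comparisons at the same time shared their untreated cultures. All 72 h cultures were of lot May16, and the 24 h cultures were of lots Feb15 (139 cultures), March15 (206) and May16 (73), so time and lot cannot be told apart unless a stimulus was also given to May16 cultures for 24 h. Another scaling, which centred each library on its abundant genes, shifted 49 of 128 comparisons by more than 0.1 on the log2 scale, at most by 0.42 in either direction. The microglial markers summed to a median of 5816 CPM in untreated 24 h cultures (3581 to 9234), 2993 CPM with IFNg (2583 to 4912) and 1473 CPM with LPS_hi (884 to 2831), and the part of this difference in the results was not tested. In the same groups the T and NK cell markers Cd3e, Trbc2, Nkg7, Ncr1 and Klrb1c all had a median of 0.

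At 24 h, interferons, LPS and the double-stranded RNA analogue poly I:C (IC) raised the family, and few pairs passed with the other stimuli. Of 304 pairs of a member and a stimulus, 49 were called higher and 2 lower, and 28 of 38 stimuli had no call. The responding groups were IFNg and IFNb (0.0001 µg/µl), IFNa (0.0008), IC (0.2), LPS_hi (0.0001) and LPS_lo (0.00001 µg/µl).

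**Figure D1:**
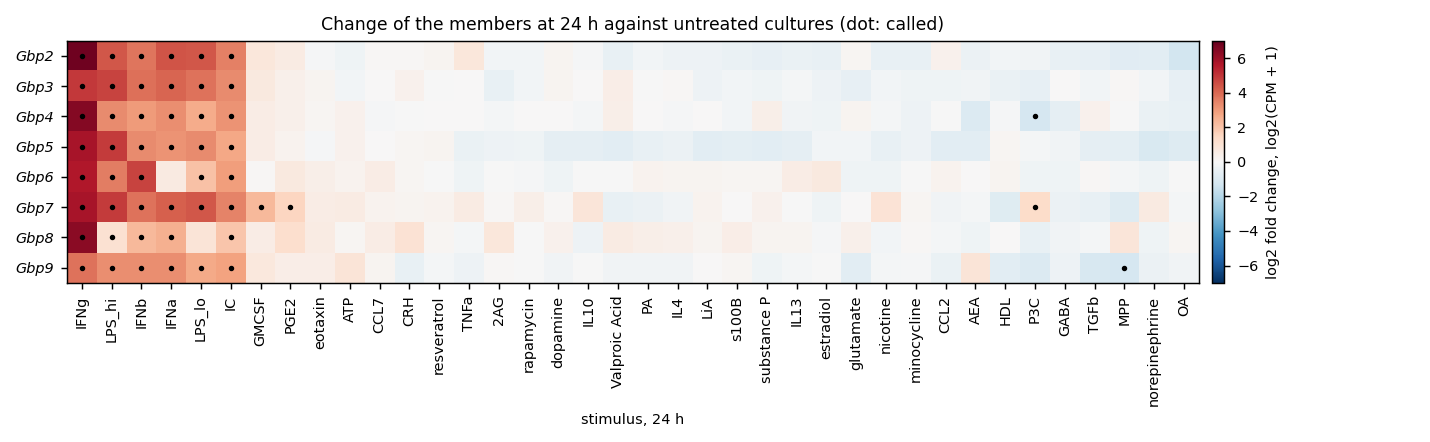
Log2 fold change of each member (rows) against untreated cultures for the 38 stimuli given for 24 h (columns, ordered by the mean over members). Red is higher, blue is lower and a dot marks a call. The calls higher lie in the columns of IFNg, LPS_hi, IFNb, IFNa, LPS_lo and IC, except for Gbp7 with GMCSF, PGE2 and P3C.

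IFNg gave the largest changes. All 8 members were called higher, against 4.4% of all genes tested, with a median log2 fold change of 5.77 beside -0.04 over all genes. Gbp2 ranged from 7.80 to 108 CPM in 40 untreated cultures (median 46.8) and from 4081 to 6931 CPM in 9 IFNg cultures (median 4739), with no overlap. This is a log2 fold change of 6.82 (SE 0.42, adjusted p = 2.0e-47 in limma), or 113-fold. Gbp4 rose from a median of 2.17 CPM (0.155 to 7.19) to 273 CPM (159 to 352), and Gbp8 from 0.522 CPM (0 to 3.66) to 128 CPM (93.5 to 167). Their log2 fold changes were 6.42 (SE 0.35) and 6.32 (SE 0.34), and neither gene's groups overlapped. Gbp7, Gbp5, Gbp6 and Gbp3 rose by 5.79, 5.75, 5.61 and 4.94 on the log2 scale. Gbp9 had the smallest change on this scale, 3.80 (SE 0.36), from a median of 3.09 CPM (0.368 to 12.9) to 58.5 CPM (39.7 to 76.4). On chromosome 3 the folds of CPM + 1 were 113 for Gbp2, 55.2 for Gbp7, 53.7 for Gbp5 and 30.8 for Gbp3. On chromosome 5 they were 85.6 for Gbp4, 80.1 for Gbp8, 48.8 for Gbp6 and 13.9 for Gbp9. These folds are understated for members near 0 in untreated cultures, such as Gbp8 (median 0.522 CPM), so they do not rank the members.

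Type I interferons raised the family less. IFNb called all 8 members higher (3.46% of all genes), with log2 fold changes from 2.27 for Gbp8 to 4.74 for Gbp6. IFNa called 7 higher (3.22% of all genes), from 2.498 for Gbp8 to 4.38 for Gbp2. Gbp6 did not pass with IFNa over both lots, where it was listed at 0 in 6 of 8 cultures. Within lot Feb15 all 8 members, Gbp6 among them, were called higher with IFNa, and within May16 7 were. Gbp2 reached 457 to 761 CPM with IFNb (median 650, 10 cultures) and 584 to 1478 CPM with IFNa (median 956, 8 cultures), both above every untreated culture and below every IFNg culture.

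The direct comparison showed that the interferons differed by member. IFNg exceeded IFNb for 5 members (2.31% of all genes): Gbp8 by 4.06 (SE 0.42), Gbp4 by 3.45 (SE 0.44), Gbp2 by 3.05 (SE 0.52), Gbp5 by 2.44 (SE 0.52) and Gbp7 by 1.99 (SE 0.48) on the log2 scale. Gbp9, Gbp6 and Gbp3 did not pass, with 95% intervals of the difference from -0.37 to 1.41, -0.13 to 1.87 and 0.36 to 1.81. Of these, Gbp6 was -1.22 in lot Feb15 and 1.87, with a call, in lot March15, and Gbp3 was 0.37 and 1.45, the latter with a call. IFNg exceeded IFNa for the same 5 members and for Gbp6 (5.52% of all genes), but for Gbp7 (1.63, SE 0.51) the call was lost with the cell lot, the culture plate or the library pool in the model. The only lot with both was Feb15, where Gbp8 (4.04), Gbp6 (2.67), Gbp2 (2.65) and Gbp4 (2.46) were called and Gbp5 (0.92) and Gbp7 (0.34) were not. IFNa and IFNb differed only in Gbp6 among the 8, which was 4.09 lower with IFNa (0.449% of all genes lower).

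Because cell lots differed, the values were also taken within lots. With IFNg, all 8 members were called in Feb15 and in March15, and the log2 fold change of Gbp2 was 6.19 and 7.44. IFNg exceeded IFNb for Gbp2 by 3.04 in Feb15 and 3.07 in March15, for Gbp4 by 3.23 and 3.56, and for Gbp8 by 4.28 and 3.97. Gbp5 and Gbp7 passed this comparison in March15 (2.61 and 2.13) and did not in Feb15 (2.23 and 1.76).

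Gbp6 differed between lots. In cultures given an interferon, IC or LPS for 4 or 24 h, it was listed at 0 in 31 of 34 cultures of lot May16 (91.2%), in 12 of 56 of Feb15 (21.4%) and in 1 of 43 of March15 (2.33%). Within Feb15 it also differed between library pools, with a median of 35.9 CPM in one pool of 23 such cultures and 4.03 CPM in another of 21. The part of lot, pool and read sharing with Gbp10 in these values was not tested.

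**Figure D2:**
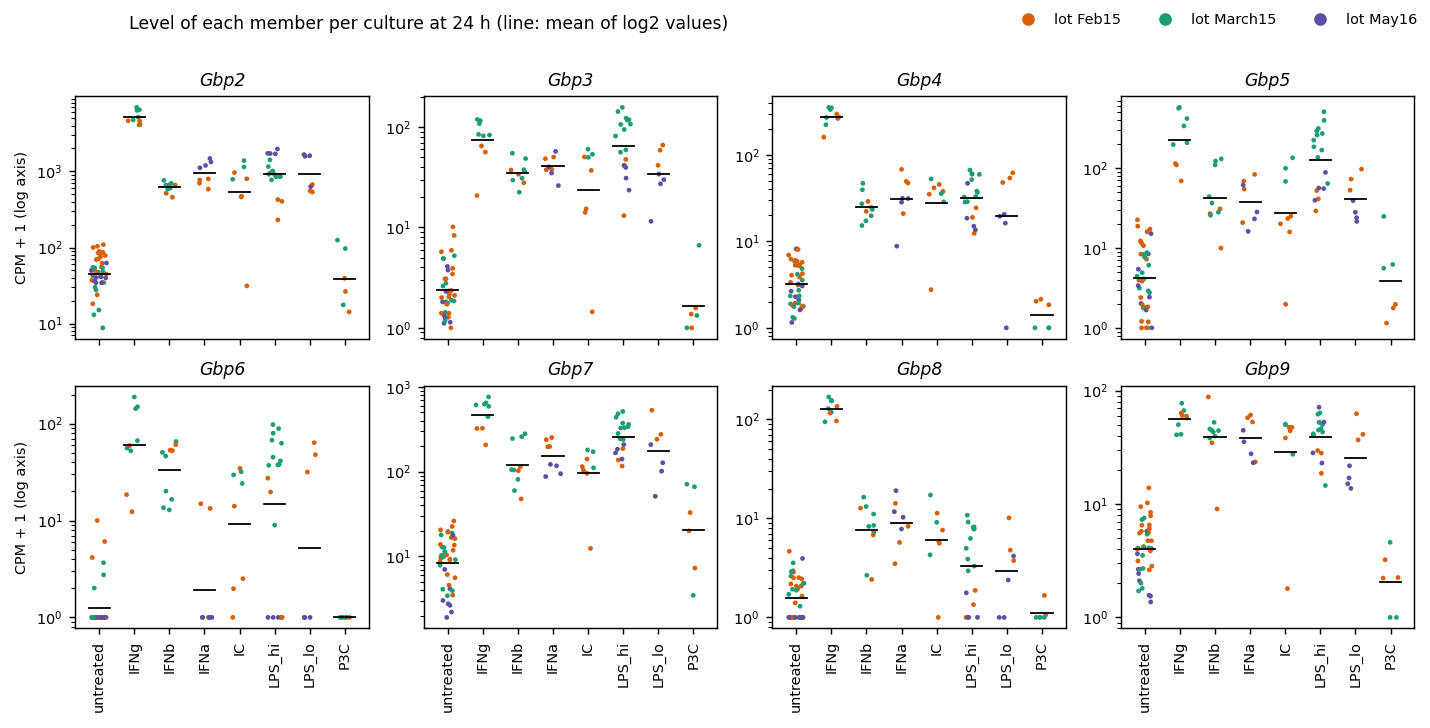
Level of each member in single cultures at 24 h (CPM + 1 on a log axis), with colour for the cell lot and a line at the mean of the log2 values. For Gbp2 the IFNg cultures (4081 to 6931 CPM) lie above all others shown and the P3C cultures (13.3 to 124 CPM) lie near the untreated ones, and Gbp6 is at 0 in the May16 cultures shown.

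IC and LPS brought the members to levels near those of type I interferon. One IC culture stood apart: replicate 5 of 8 resembled the mean P3C culture (r = 0.955 over all genes tested) more than the other IC cultures (r = 0.912), and its Gbp2 was 30.3 CPM where the other 7 ranged from 461 to 1383 CPM. With it, all 8 members were called higher (2.89% of all genes), from 1.94 for Gbp8 to 3.55 for Gbp2. Without it, the same 8 remained called. IC and IFNb differed only in Gbp6 (1.83 lower with IC, 0.502% of all genes lower), a call that was lost without replicate 5 and was 0.10 in the other direction within lot March15.

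LPS_hi called all 8 members higher (5.25% of all genes) and LPS_lo 7 (4.15%). With LPS_hi (18 cultures), Gbp7 rose by 4.92 (SE 0.30), Gbp5 by 4.88 (SE 0.32), Gbp3 by 4.74 (SE 0.23) and Gbp2 by 4.35 (SE 0.32) on the log2 scale. Gbp5 ranged from 28.1 to 507 CPM (median 151), above every untreated culture (0 to 21.5 CPM). Gbp8 had the smallest change, 1.05 (SE 0.26, adjusted p = 0.00041), and this call came from lot March15 (1.82). Gbp8 was -0.24 in Feb15 and -0.18 in May16, and the call was lost with plate, pool or lot in the model. Gbp6 rose by 2.60 in Feb15 and 5.23 in March15 and was at 0 in May16. No member was called between the 2 LPS doses, which differ by a factor of 10. Gbp2 had a difference of 0.02 with a 95% interval from -0.98 to 1.02, and Gbp5 had 1.59 (0.61 to 2.57, adjusted p = 0.19), with opposite signs in Feb15 (-0.86) and May16 (1.07).

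Against IFNg, LPS_hi left Gbp8 lower by 5.27 (SE 0.38), Gbp4 by 3.12 (SE 0.39), Gbp2 by 2.47 (SE 0.47) and Gbp6 by 2.01 (SE 0.45), where 5.87% of all genes were called lower. For Gbp2, Gbp4 and Gbp8 the call was also made within both lots, and for Gbp6 in neither (1.55 lower in Feb15 and 1.03 lower in March15). Against IFNb, LPS_hi was higher for Gbp5 (1.57, SE 0.44, 3.19% of all genes) and lower for Gbp8 (1.21 lower, SE 0.36, 4.71% of all genes). The Gbp5 difference was 0.97 in Feb15 and was not called there, and the Gbp8 call was lost with the library pool in the model.

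P3C (Pam3CysSerLys4), a ligand of TLR2, gave few changes in the members. Gbp2 was 13.3 to 124 CPM in 6 P3C cultures (median 31.96), beside 7.80 to 108 CPM in untreated cultures. Gbp7 was called higher by 1.29 (SE 0.46, 3.22% of all genes higher) and Gbp4 lower by 1.17 (SE 0.42, 16.9% of all genes lower). The Gbp7 call was lost with the lot in the model and the Gbp4 call with plate or pool or with centred values. LPS_hi exceeded P3C for all 8 members (7.14% of all genes) by 1.58 for Gbp8 to 5.29 for Gbp3, and IC exceeded P3C for all 8 (5.09% of all genes). Within Feb15, the difference of Gbp8 between LPS_hi and P3C was 0.17 and was not called.

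The remaining calls at 24 h were in single members. Granulocyte-macrophage colony-stimulating factor (GMCSF) raised Gbp7 by 2.28 (SE 0.41, 0.844% of all genes), from a median of 8.68 to 49.7 CPM, and this was called in Feb15 (2.49) and in May16 (2.80). Prostaglandin E2 (PGE2) raised Gbp7 by 1.52 (SE 0.41, adjusted p = 0.046, 0.272% of all genes), and this was lost with plate, pool or lot in the model. MPP lowered Gbp9 by 1.16 (SE 0.38, adjusted p = 0.038, 1.79% of all genes), which was not called in Feb15 (-1.52) or March15 (-0.997) alone. For the 28 stimuli without a call, limma gave an unadjusted p under 0.05 in 13 of 224 pairs, and log2 fold changes lay between -1.31 and 0.99. Such counts of unadjusted p are given here and below without the share over all genes, which was not taken, so no effect is read from them. Group means in these 28 ranged from 23.3 to 103 CPM for Gbp2, from 4.24 to 23.9 CPM for Gbp7 and from 1.40 to 5.14 CPM for Gbp5. They included IL4, IL13, IL10, TGFb and TNFa, and with TNFa Gbp2 had 0.78 (95% interval -0.14 to 1.70).

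Ranked by level at 24 h, IFNg came first for each of the 8 members among all single and combined stimuli. It was ahead of the next group beyond the spread for Gbp8 (3.83 above IFNa, SE 0.45), Gbp4 (2.95 above LPS_lo + CCL2, SE 0.48) and Gbp2 (1.76 above LPS_lo + rapamycin, SE 0.58, adjusted p = 0.025). For Gbp3, Gbp5, Gbp6, Gbp7 and Gbp9 the group after IFNg did not pass against it. Among ranks 2 to 6 of any member, no neighbouring pair passed. The ranks came from these same values, which keeps neighbouring differences small, and the ranked groups differed in their cell lots.

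At 4 h, LPS_hi had already raised 7 of 8 members (5.45% of all genes, compared with untreated 24 h cultures, so that stimulus and time in culture cannot be told apart). Gbp5 had the largest log2 fold change of CPM + 1, 7.0 (SE 0.46) or 128-fold, with 316 to 861 CPM in 7 cultures (median 551). Gbp3 rose by 5.32, Gbp2 by 5.22, Gbp6 by 5.09, Gbp7 by 4.94, Gbp4 by 4.42 and Gbp9 by 3.86 on the log2 scale, and all 7 were called in both lots present. Gbp8 ranged from 0 to 1.40 CPM (median 0.247), within the untreated range. ATP, CCL2, CCL7, nicotine and norepinephrine alone gave no call at 4 h, with an unadjusted p under 0.05 in 7 of 40 pairs.

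At 72 h, IFNg still raised all 8 members (4.29% of all genes), with log2 fold changes from 1.61 to 8.70. IFNg was not given to May16 cultures for 24 h, so time and lot cannot be told apart in its differences between 24 h and 72 h. Gbp2 ranged from 10074 to 12982 CPM in 6 cultures (median 11900.4), against 0.797 to 181 CPM in 25 untreated cultures (median 35.4). This was a log2 fold change of 8.70 (SE 0.52), or 415-fold. Gbp4 rose by 6.74 (SE 0.43), Gbp8 by 5.95 (SE 0.42) and Gbp3 by 5.67 (SE 0.37). Gbp9 rose by 1.61 (SE 0.45, adjusted p = 0.0042), with 0.404 to 32.1 CPM (median 10.7) against 0 to 7.12 CPM.

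**Figure D3:**
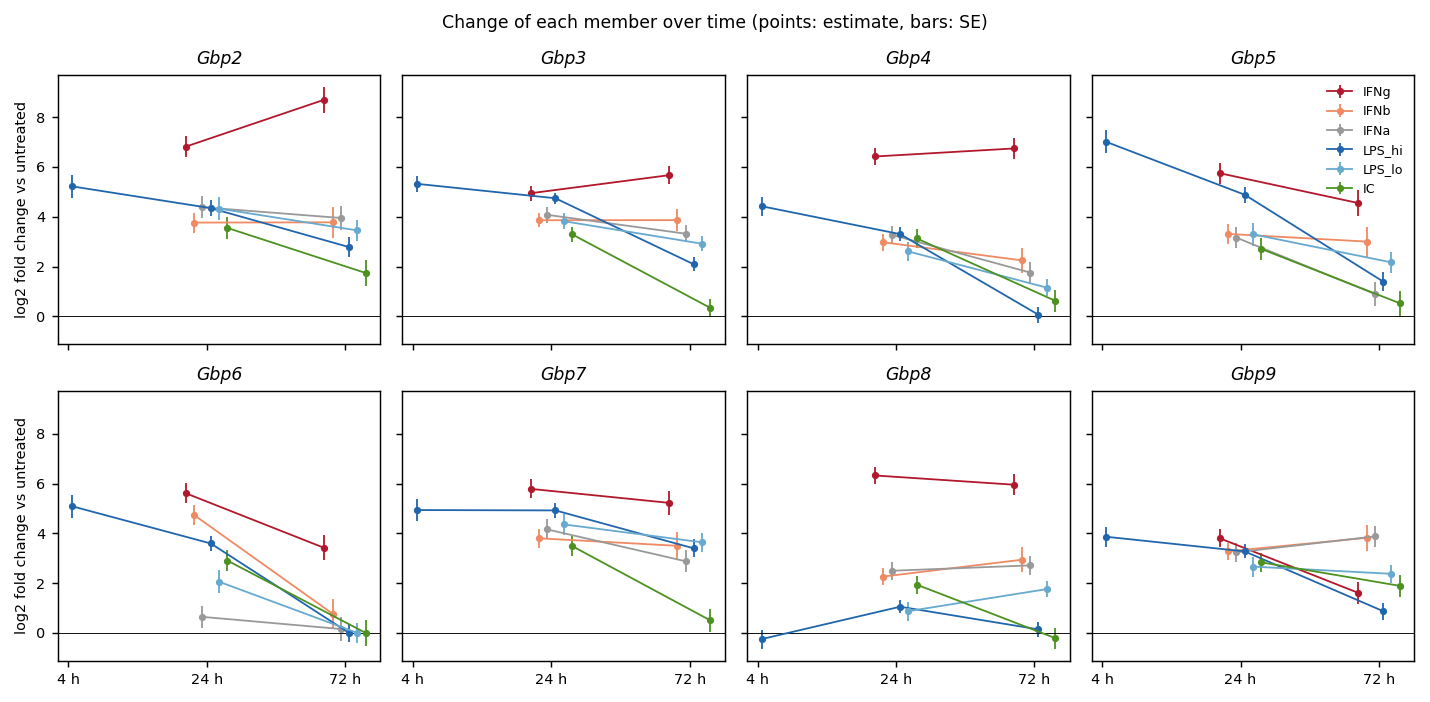
Log2 fold change of each member against untreated cultures at 4, 24 and 72 h for IFNg, IFNb, IFNa, LPS_hi, LPS_lo and IC, with bars for the SE; the 4 h values use untreated 24 h cultures. Gbp5 starts highest with LPS_hi at 4 h (7.0). Gbp9 with IFNg is 3.80 at 24 h and 1.61 at 72 h, in cultures of different cell lots.

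At 72 h, Gbp9 was lower with IFNg than with the type I interferons, whereas at 24 h neither comparison had passed. The IFNg cultures of these times were of different cell lots. It was 30.3 to 48.8 CPM with IFNa (median 34.3, 7 cultures) and 45.7, 39.1, 17.2 and 49.8 CPM in the 4 IFNb cultures, against the 0.404 to 32.1 CPM of IFNg. Of these, 6 of 7 IFNa cultures and 3 of 4 IFNb cultures lay above the highest IFNg culture. Gbp9 was lower with IFNg than with IFNa by 2.27 (SE 0.55, 4.14% of all genes lower) and than with IFNb by 2.21 (SE 0.63, 5.85% lower), and the latter was lost without IFNb replicate 4 or with the library pool in the model. Other members were higher with IFNg. IFNg exceeded IFNa for the 7 others (2.77% of all genes), from 2.35 for Gbp3 to 4.98 for Gbp4. It exceeded IFNb for Gbp2, Gbp3, Gbp4, Gbp6 and Gbp8 (2.13% of all genes), with 4.92 for Gbp2, and the Gbp3 call was lost without IFNb replicate 4. Gbp5 (1.55) and Gbp7 (1.73) did not pass against IFNb.

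Type I interferons at 72 h raised 7 members with IFNb (3.58% of all genes) and 6 with IFNa (2.85% of all genes). Gbp3 rose by 3.86 with IFNb and 3.32 with IFNa, and Gbp9 by 3.82 and 3.88. Gbp6 passed with neither, and Gbp5 passed with IFNb (3.00) and not with IFNa. No member was called between IFNa and IFNb, and for Gbp5 the difference was -2.11 (95% interval -3.49 to -0.72, adjusted p = 0.099).

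LPS_hi and IC effects were smaller after 72 h than after 24 h. LPS_hi called 4 members higher at 72 h (Gbp7 by 3.397, Gbp2 by 2.78, Gbp3 by 2.09 and Gbp5 by 1.40, 3.59% of all genes) and LPS_lo called 7 (4.4% of all genes, all but Gbp6). The change with LPS_hi, each against untreated cultures of its own time, was lower at 72 h than at 24 h for 7 members (3.19% of all genes), by 1.52 for Gbp7 to 3.59 for Gbp6. The Gbp2 decline (1.57) was lost with plate or pool in the model and the Gbp7 decline with plate. Within lot May16, which was used at both times, the decline passed for Gbp2 (2.64 lower), Gbp3 (2.07), Gbp4 (2.93), Gbp5 (2.67) and Gbp9 (3.19), and did not for Gbp7 (2.10), while Gbp6 was 0.00. For LPS_lo, only Gbp6 passed (2.06 lower, 0.596% of all genes lower), and it was 0.00 within May16. For IC, 6 members declined (2.04% of all genes, all but Gbp2 and Gbp9), by 2.15 for Gbp8 to 2.99 for Gbp7. Gbp2 (1.74, SE 0.52) and Gbp9 (1.89, SE 0.45) were still called against untreated 72 h cultures (2.81% of all genes). IC was not given to May16 cultures at 24 h, so its decline and the lot cannot be told apart. The same holds for the declines of Gbp6 (2.19 lower) and Gbp9 (2.19 lower) with IFNg (2.59% of all genes lower) and of Gbp6 with IFNb (3.96 lower, 0.153% of all genes lower). The Gbp6 decline with IFNg was lost with pool or lot in the model. Gbp3 alone changed in the other direction, with P3C (1.91 higher at 72 h, SE 0.51, 8.42% of all genes), a call lost with pool in the model. P3C was not given to May16 cultures at 24 h either, so lot and time cannot be told apart.

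LPS_hi and IC differed from P3C in fewer members at 72 h than at 24 h. The LPS doses differed in more members, as did LPS_hi and IC from the interferons compared. LPS_hi was lower than LPS_lo for Gbp8 by 1.62 (SE 0.38) and Gbp9 by 1.5 (SE 0.40), where 4.43% of all genes were lower, and the Gbp9 call was lost with plate or pool in the model. LPS_hi exceeded P3C for Gbp2 by 1.63 and Gbp7 by 2.01 (1.14% of all genes), and IC exceeded P3C for Gbp9 by 2.04 (2.99% of all genes). LPS_hi was lower than IFNg for 7 members (6.75% of all genes, all but Gbp9), lower than IFNb for Gbp3, Gbp4, Gbp8 and Gbp9 (9.8% of all genes), and IC was lower than IFNb for Gbp3, Gbp5, Gbp7, Gbp8 and Gbp9 (5.07% of all genes). Of these, the LPS_hi call of Gbp3 against IFNb was lost with plate or pool in the model. The IC calls of Gbp5 and Gbp9 were lost with plate or pool and without IFNb replicate 1 or 3 (Gbp5, then 2.41 and 2.39 lower) or IFNb replicate 1, 2 or 4 (Gbp9, then 1.76 to 1.88 lower). No member was called between untreated cultures of 72 h and 24 h.

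GMCSF at 72 h raised a part of the family that crosses the clusters. Gbp7 rose by 3.18 (SE 0.45), Gbp8 by 2.57 (SE 0.39) and Gbp9 by 2.08 (SE 0.42), or 9.0-, 5.9- and 4.2-fold (3.23% of all genes). Gbp7 was 37.7 to 79.0 CPM in 7 cultures (median 51.5) against 0 to 64.7 CPM in 25 untreated cultures (median 5.66). Gbp8 was 1.11 to 24.96 CPM (median 21.3) against 0 to 6.37 CPM, and both genes overlapped at the edges of the groups. Gbp2 ranged from 8.63 to 63.3 CPM (median 46.0), within the untreated range, and Gbp3, Gbp4 and Gbp5 also did not pass. None of the 8 immunity-related GTPases, which respond to the same interferons, passed in this comparison.

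Other effects at 72 h concerned 1 to 3 members each. P3C raised Gbp7 by 1.39 and Gbp3 by 1.36 (4.81% of all genes), and TNFa + P3C raised Gbp2 by 1.90, Gbp7 by 1.32 and Gbp8 by 1.18 (6.34% of all genes). The Gbp7 call with P3C was lost with plate or pool in the model, and the Gbp7 and Gbp8 calls with TNFa + P3C were lost with pool. PGE2 raised Gbp4 by 1.91 (SE 0.39, 4.43% of all genes), to 1.70 to 36.3 CPM in 8 cultures, which fell apart. Gbp4 was 8.51, 1.70, 4.77 and 4.39 CPM in PGE2 replicates 1 to 4. In replicates 5 to 8 it was 21.3, 28.4, 36.3 and 21.2 CPM, and the cause of this split was not tested. Estradiol raised Gbp4 by 1.36 (1.78% of all genes) and TNFa by 1.64 (11.2% of all genes), both lost with plate or pool in the model. The TNFa group held 3 cultures, with Gbp4 at 2.42, 26.6 and 9.33 CPM, and the call was also lost without replicate 2 (0.90) or replicate 3 (1.61). Gbp2 was lower with HDL (2.63 lower, 0.726% of all genes), PA (2.48, 1.78%), MPP (2.40, 4.69%), GABA (2.21, 4.03%) and IL13 (1.78, 1.38%), and in these groups it had medians between 1.73 and 8.67 CPM beside 35.4 CPM in untreated cultures. The GABA and MPP calls were lost with the library pool and the IL13 call with plate or pool in the model, and no decline was called when only the compared groups entered the fit. Gbp8 was lower by 1.23 with IL4 + IL10 + IL13 (5.01% of all genes), also lost with plate or pool. The 10 stimuli without a call at 72 h included IL4, IL10 and TGFb, and an unadjusted p under 0.05 occurred in 15 of their 80 pairs.

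The next comparisons asked what a second agent does to the members in cultures already given LPS, TNFa or P3C. Over 26 such comparisons, 20 pairs of member and agent were called higher and 14 lower of 208, and 14 comparisons had no call.

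**Figure D4:**
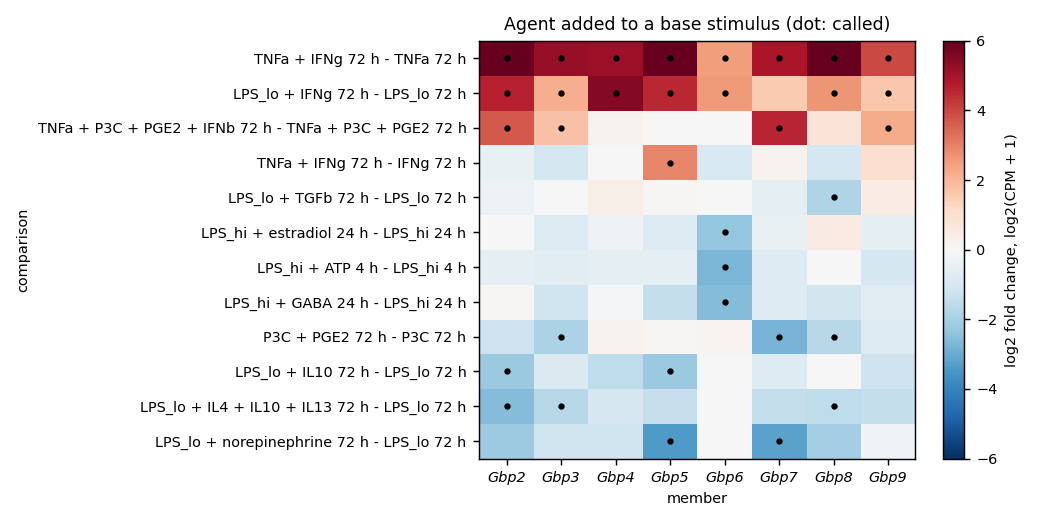
Log2 fold change of each member (columns) when an agent was added to a base stimulus (rows, each named as combination minus base), for the 12 comparisons with at least 1 call. A dot marks a call. IFNg rows are red across nearly all members, and blue calls are scattered over Gbp2, Gbp3, Gbp5, Gbp6, Gbp7 and Gbp8.

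IFNg acted on top of LPS and of TNFa. Added to LPS_lo for 72 h, it raised 7 members (1.19% of all genes): Gbp4 by 5.53 (SE 0.46), Gbp2 by 4.68 (SE 0.55), Gbp5 by 4.52 (SE 0.54), Gbp8 by 2.66, Gbp6 by 2.53, Gbp3 by 2.17 and Gbp9 by 1.63. Gbp7, which LPS_lo alone had already raised to 46.0 to 113 CPM, reached 183 to 302 CPM without overlap and had a difference of 1.55 (adjusted p = 0.068). Added to TNFa, IFNg raised all 8 (15.2% of all genes). TNFa added to IFNg changed only Gbp5, which was 2.93 higher (SE 0.61, adjusted p = 0.00016, 3.82% of all genes) or 7.6-fold. Gbp5 ranged from 222 to 675 CPM with TNFa + IFNg (median 441, 8 cultures) and from 10.8 to 146 CPM with IFNg alone (median 92.6, 6 cultures), with no overlap. With TNFa alone it was 1.21, 0 and 0 CPM. Against untreated cultures, TNFa + IFNg raised all 8 members (4.69% of all genes), with 7.48 (SE 0.46) for Gbp5.

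IFNb added to TNFa + P3C + PGE2 raised Gbp7 by 4.58 (SE 0.56), Gbp2 by 3.66 (SE 0.61), Gbp9 by 2.21 (SE 0.53) and Gbp3 by 1.78 (SE 0.43), where 1.94% of all genes were higher. Gbp2, Gbp3, Gbp7 and Gbp9 were also higher in that mix than in untreated cultures (4.19% of all genes), where the Gbp9 call (1.18) was lost with plate in the model. With P3C + PGE2, Gbp7 was 2.79 lower (SE 0.58), Gbp3 1.88 lower (SE 0.45) and Gbp8 1.67 lower (SE 0.51) than with P3C alone (3.08% of all genes), and the Gbp8 call was lost with plate or pool in the model. Gbp7 was 7.10 to 23.2 CPM in 6 P3C cultures (median 14.4) and 0 to 3.20 CPM in 7 P3C + PGE2 cultures (median 2.40), with no overlap. Against untreated cultures, the mean log2 value of Gbp7 was 1.40 lower with P3C + PGE2 (4.1% of all genes). With TNFa + P3C + PGE2 it was 1.35 lower (5.61% of all genes). Both calls were lost when only the compared groups entered the fit, and the P3C + PGE2 values lay within the untreated range.

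Of the agents known to calm microglia, several lowered single members in LPS_lo cultures at 72 h. IL10 lowered Gbp2 by 2.25 (SE 0.62) and Gbp5 by 2.21 (SE 0.61), both at an adjusted p = 0.021 (1.91% of all genes). Gbp2 was 71.1, 55.3, 141, 28.5 and 66.5 CPM with IL10 and 183 to 470 CPM in 11 LPS_lo cultures (median 289), so no culture overlapped. Both calls were lost with plate or pool in the model and without IL10 replicate 4 (Gbp2 then 1.96 lower, Gbp5 2.05 lower) or replicate 5 (2.26 and 2.07 lower), and that of Gbp5 also without replicate 2 (1.91 lower). IL4 + IL10 + IL13 together lowered Gbp2 by 2.60 (SE 0.62), Gbp3 by 1.66 (SE 0.44) and Gbp8 by 1.51 (SE 0.50), where 3.18% of all genes were lower. Gbp2 was 26.4, 69.3, 57.7, 122 and 23.2 CPM in that mix, again below all LPS_lo cultures. Its call was lost with plate or pool, that of Gbp8 with plate or pool or without replicate 1, 2, 3 or 4 (then 1.20 to 1.65 lower), and that of Gbp3 without replicate 3 (then 1.35 lower). TGFb lowered Gbp8 by 1.82 (SE 0.43, 1.35% of all genes), to 0 to 3.92 CPM in 8 cultures. Norepinephrine lowered Gbp5 by 3.42 (SE 0.73) and Gbp7 by 3.21 (SE 0.68), where 0.354% of all genes were lower. In its 3 cultures Gbp5 was listed at 0, and Gbp7 was 8.24, 6.54 and 6.19 CPM against 46.0 to 113 CPM with LPS_lo. Both calls were lost with the library pool in the model. IL4 and IL13 alone gave no call.

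Among LPS_hi combinations, only Gbp6 was called lower, with ATP at 4 h (2.72 lower, SE 0.62, 0.596% of all genes), GABA at 24 h (2.59 lower, 0.277%) and estradiol at 24 h (2.32 lower, 0.248%). The ATP difference was called in both lots (3.35 lower in Feb15, 2.37 lower in March15). With ATP, Gbp6 was only 20.7 and 0 CPM in the Feb15 cultures. In those of March15 it was 0, 15.1, 12.9 and 12.6 CPM. For GABA and estradiol, Gbp6 was 0.76 and 0.62 lower in Feb15 and 0.36 and 0.48 higher in May16, with no call in either lot. The part of the lots in these calls was not tested. Rapamycin and resveratrol with LPS_lo gave no call, and Gbp2 with rapamycin had 0.73 (95% interval -0.47 to 1.93). In the 14 combinations without a call, 23 of 112 pairs had an unadjusted p under 0.05 in limma, and the share over all genes was not taken.

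The other genes of the pathway were taken from lists. All 8 immunity-related GTPases, which act beside the guanylate-binding proteins at pathogen vacuoles, were called higher at 24 h with IFNg, IFNa, IFNb, IC and LPS_hi, and 7 with LPS_lo; none passed with P3C or TNFa. Iigp1 rose by 8.05 (SE 0.45) and Tgtp2 by 6.54 (SE 0.43) with IFNg. Of 10 signalling genes and transcription factors, 6 were higher with IFNg, among them Socs1 (6.66) and Irf1 (4.40). Irf8 rose with IFNg (2.17) and fell with LPS_hi by 1.30 at 24 h, and Irf7 rose with IFNb (5.07) and with IFNg (2.59), a difference that was not tested. Of the interferon genes, Ifnb1 passed the filter and was higher with LPS_hi at 4 h (4.11, SE 0.12) and not at 24 h (0.03). Of 4 receptor genes, none rose with IFNg. Of 5 inflammasome genes, 3 rose with IFNg (Casp1 by 2.13, Casp4 by 1.61, Nlrp3 by 1.49). Among the other Gbp rows, Gbp2b rose by 7.57 (SE 0.39) with IFNg at 24 h and Gbp11 by 3.49 (SE 0.20), while Gbp10 had 0.00 (SE 0.15).

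Across the 97 groups with at least 3 cultures, the members other than Gbp8 followed similar profiles. Pearson's r between 2 members over group means ranged from 0.412 to 0.950 (median 0.798, 28 pairs). Between Gbp8 and the others it ranged from 0.412 (Gbp6) to 0.631 (Gbp4). The part of the shared 3′ sequence of Gbp4, Gbp6, Gbp8 and Gbp9 in r was not tested. These points share untreated conditions, lots and plates, so r is given as a description. Over 16931 genes, the gene most like each member was Iigp1 for Gbp2 (r = 0.936), Igtp for Gbp3 (0.943), Fam26f for Gbp4 (0.902), Cxcl10 for Gbp5 (0.961), Tgtp1 for Gbp6 (0.842), Irgm1 for Gbp7 (0.907), Ly6f for Gbp8 (0.776) and Phf11b for Gbp9 (0.898). The genes most like the mean profile of the members were Batf2, Iigp1, Tgtp2, Igtp and Samhd1, with r from 0.928 to 0.942.

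In mice, injected LPS raised the chromosome 3 members in CD11b-selected brain cells within 4 h. Of 5 members above the filter on low values (5 CPM in at least 4 of 8 mice), 4 were called higher in limma, beside 8.79% of 9012 genes. Gbp5 was 1.18, 1.68, 3.36 and 2.03 CPM in PBS mice and 42.2, 40.02, 66.1 and 35.3 CPM in LPS mice, a log2 fold change of 3.94 (SE 0.27, adjusted p = 6.8e-08). Gbp2 was 27.7, 21.2, 20.4 and 28.3 CPM in PBS mice and 173, 289, 188 and 198 CPM in LPS mice, a change of 3.05 (SE 0.18). For neither gene did the groups overlap.

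**Figure D5:**
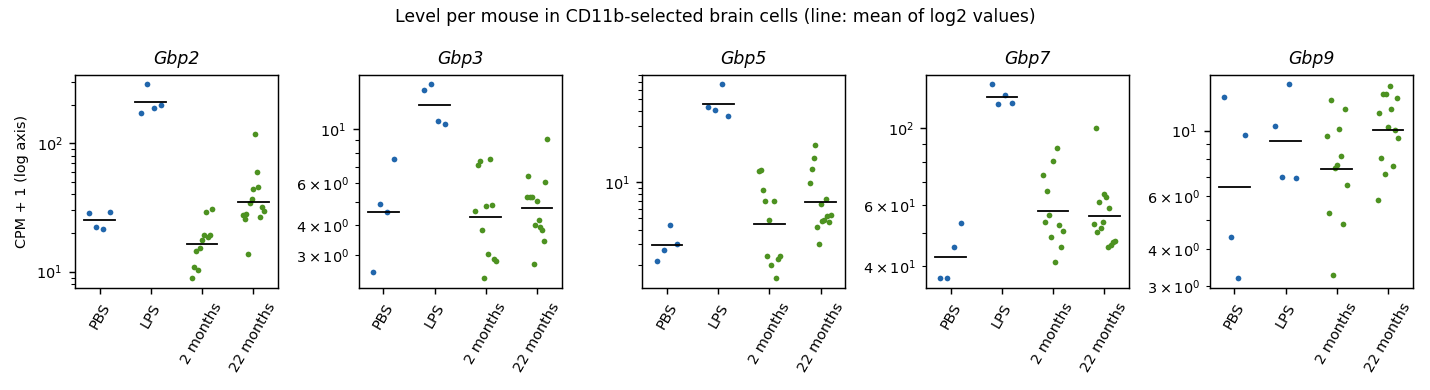
Level of 5 members in each mouse (CPM + 1 on a log axis), with a line at the mean of the log2 values, for PBS and LPS mice of 2 months (blue) and naive mice of 2 and 22 months (green). Gbp2, Gbp3, Gbp5 and Gbp7 do not overlap between PBS and LPS mice, and the share of all genes without overlap was not counted. Gbp2 has a median of 16.7 CPM at 2 months and 30.8 CPM at 22 months.

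Gbp7 rose by 1.53 (SE 0.15), from 35.9, 35.9, 44.5 and 52.3 CPM to 133, 116, 123 and 117 CPM. Gbp3 rose by 1.47 (SE 0.33, adjusted p = 0.0050), from 1.57, 3.90, 3.56 and 6.52 CPM to 13.5, 14.4, 9.82 and 9.56 CPM. For each of these 4 genes the exact permutation test over mice gave p = 0.0286 (2-sided), the smallest it can give with 4 against 4. Groups that do not overlap always give this p, and the share of all genes without overlap was not counted. Gbp9, on chromosome 5, was 11.9, 3.397, 2.18 and 8.70 CPM in PBS mice and 9.38, 6.003, 13.3 and 5.91 CPM in LPS mice. Its groups overlapped, and its change of 0.51 (95% interval -0.39 to 1.41) had an adjusted p = 0.41 in limma and p = 0.37 in the exact test. Gbp4, Gbp6 and Gbp8 were below the filter, with at most 4.65, 1.52 and 1.64 CPM in any of the 8 mice. Fewer cells of a type and less RNA per cell cannot be told apart in such samples. Neutrophil markers summed to 64.2 to 130 CPM in PBS mice and 142 to 257 CPM in LPS mice, monocyte markers to 16.9 to 40.01 and 42.6 to 89.5 CPM, and microglial markers to 43611 to 54669 and 46557 to 52122 CPM. Other types had lower medians in LPS mice, among them B cells (298 CPM in PBS mice, 99.3 CPM in LPS mice). Oligodendrocyte markers had medians of 828 and 374 CPM, and for both types the groups overlapped. The part of these cells in the changes of the members was not tested.

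Of the pathway in the same mice, 3 of 6 immunity-related GTPases rose (Ifi47 by 2.83, Iigp1 by 2.37 and Tgtp2 by 2.08), and Irgm1, Irgm2 and Igtp did not pass. Of 5 inflammasome genes 2 rose. Casp4, whose product the guanylate-binding proteins help to engage, rose by 3.01 (SE 0.18) and Nlrp3 by 1.01. Casp1, Aim2 and Gsdmd did not pass. Irf1 rose by 2.60 (SE 0.14). Stat2 rose by 1.55.

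Age had a smaller effect. Of 5 members above the filter (5 CPM in at least 11 of 24 mice), Gbp2 and Gbp5 were called higher at 22 months, beside 6.95% of 9632 genes, in a limma fit with the library series as a term. Gbp2 ranged from 7.86 to 29.8 CPM (median 16.7) in 11 mice of 2 months and from 12.7 to 118 CPM (median 30.8) in 13 mice of 22 months. The groups overlapped, and the log2 difference was 1.04 (SE 0.19, adjusted p = 0.00024). Gbp5 ranged from 0.550 to 11.7 CPM (median 3.82) and from 2.00 to 19.7 CPM (median 4.36), with a log2 difference of 0.72 (SE 0.22, adjusted p = 0.033). The Gbp5 call was lost without the series in the model. Within the series of 4 and 4 mice no member was called (Gbp2 1.06, Gbp5 0.53), and within the series of 7 and 9 mice Gbp2 was. Gbp9 (0.43, 95% interval 0.02 to 0.84), Gbp4 (0.26) and Gbp7 (-0.04) did not pass, and Gbp3, Gbp6 and Gbp8 were below the filter. Neutrophil markers summed to a median of 510 CPM (132 to 1067) at 2 months and 1080 CPM (303 to 3664) at 22 months, monocyte markers to 57.0 CPM (31.6 to 99.7) and 114 CPM (52.4 to 265), and T and NK cell markers to 6.67 CPM (2.63 to 24.5) and 31.7 CPM (8.73 to 110). The part of these cells in the values of Gbp2 and Gbp5 was not tested. In the same fit Iigp1 rose by 1.53, Tgtp2 by 1.35, Ifi47 by 1.21 and Irf7 by 1.57.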

How the data were processed

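Gene values were deposited by the authors as counts per 1000000 mapped reads (CPM), called TPM in the study but not divided by transcript length. RNA was amplified with T7 polymerase, sequenced from its 3′ end and quantified with Salmon 0.7.1 on Ensembl build 81 transcripts (the submitters' processing notes list mm8), and shallow samples were removed. Whole reads could not be recovered, so no count model was used. CPM was taken as log2(CPM + 1) and fitted in limma 3.58.1 (R 4.3.3) with a mean-variance trend and Benjamini-Hochberg adjustment over all genes tested. Genes above 5 CPM in at least 4 samples were kept (11 mice for age). All 784 cultures of the panel entered 1 fit with a mean for each group, and calls needed an adjusted p under 0.05 and a log2 fold change of at least 1. Mouse calls needed an adjusted p under 0.05. The scripts were tested on simulated data. Every member is named in each result, and other genes come from lists of other Gbp genes, immunity-related GTPases, interferon ligands, receptors, signalling and inflammasome genes. Members and lists were chosen with earlier results of these data known. Alternatives covered pseudocount, filter, centring, plate, pool, group-wise fits, adjustment, a rank-sum test and left-out samples. The cell lot term and within-lot values were added after seeing the data. Columns of per-sample values left unused numbered 0. Promoter windows are RefSeq GRCm38.p6.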

Additional observations from a re-analysis of the deposited data

Results flagged for a closer look

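Of 94 sets of values (1 member in 1 group of 4 to 10 samples) checked for a sample far from the others, 15 had one by Dixon's test, which chance gives in about 1 of 20. Replicate 5 of the IC 24 h cultures accounted for 5 of them, with Gbp2 at 30.3 CPM, Gbp3 at 0.442, Gbp4 at 1.76, Gbp7 at 11.4 and Gbp9 at 0.796 CPM, each the lowest of its group. Low values at 24 h were also seen for Gbp3 in IFNg replicate 7 (19.8 CPM), Gbp9 in IFNb replicate 4 (8.04 CPM) and Gbp4 in LPS_lo replicate 7 (0 CPM). At 4 h, Gbp4 was 39.5 CPM in LPS_hi replicate 1. At 72 h, the values that stood apart were Gbp8 in IFNg replicate 5 (94.3 CPM), Gbp7 in IFNb replicate 2 (108 CPM), Gbp8 in GMCSF replicate 3 (1.11 CPM), Gbp7 and Gbp9 in TNFa + IFNg replicate 8 (394 and 0 CPM) and Gbp9 in LPS_lo + IFNg replicate 7 (103 CPM).

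The response to a stimulus differed between 72 h and 24 h, in a test of the difference itself, for 7 members with LPS_hi, 6 with IC, 2 with IFNg, and 1 each with IFNb, LPS_lo and P3C. Among the stimuli compared over time, LPS_hi, LPS_lo and IFNa were given at both times within 1 cell lot.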

How the results depend on the processing

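No paired analysis was possible because the replicate numbers were given in accession order and pair no samples. Of the called single values, 2514 recomputations kept direction and call, 252 lost the call and 5 reversed. The reversals were Gbp8 with LPS_hi at 24 h within lot Feb15 (-0.24) and May16 (-0.18), Gbp6 with LPS_hi + GABA (0.36) and LPS_hi + estradiol (0.48) against LPS_hi within May16, and Gbp6 between IC and IFNb within March15 (0.10). Calls higher at 24 h (49) lay between 36 and 51 under every setting run, and those in LPS mice stayed at 4. Calls lower at 24 h (2) became 0 with a pseudocount of 5, with adjustment over all comparisons of the family or with the rank-sum test, 1 with centred values and 4 with the cell lot in the model. Calls lower at 72 h (8) became 19 with a pseudocount of 0.1, 4 with 5, and 0 in fits of the compared groups alone and by rank-sum test. A pseudocount of 0.1 also gave 1 call lower at 4 h (from 0), 8 of the added agents lower (from 14, and 9 with the library pool), 2 changes over time higher (from 1) and 11 lower (from 17). Changes over time higher were also 2 with centred values or in separate fits, 3 with the cell lot, and 1 to 2 when a replicate was left out (2 without IC 24 h replicate 5). Direct comparisons lower (27) became 12 in separate fits. The rank-sum test gave 23 calls higher at 72 h (from 57), and 0 higher (from 43) and 3 lower in direct comparisons. It could reach its threshold in only 27 of 32 and 4 of 19 of these comparisons, because groups were small. Age calls (2) became 1 without the library series, 0 and 1 within the series of 8 and of 16 mice, and 1 when a log2 difference of at least 1 was also required. The cause of the other changes was not tested. Depth limits members near 0, chiefly Gbp6 and Gbp8.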

Other observations

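A single culture labelled LPS_hi at 0.00001 µg/µl for 72 h, the dose of the LPS_lo groups, entered no comparison. Its values were 27.4 CPM for Gbp2, 4.57 for Gbp3, 3.57 for Gbp4, 0 for Gbp5, 0 for Gbp6, 11.2 for Gbp7, 0.686 for Gbp8 and 23.3 CPM for Gbp9.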
